A study of Homo sapiens with 4 samples.

Results

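Distal open chromatin regions that carry an AP-1 site were examined in SK-N-BE(2)C cells, an established neuroblastoma line with amplified MYCN, by ATAC-seq. A peak was distal when it lay more than 3 kb from the transcription start site (TSS) of every annotated transcript. It was a member when the 201 bp around its summit, 100 bp on either side, held the word TGACTCA or its reverse complement TGAGTCA. Of 47610 peaks in control cells 25789 were distal and 1553 were members. Of 42682 peaks in sgSNHG1 cells 22396 were distal and 1648 were members. A member was called shared when any peak of the other list overlapped it by at least 1 bp. In the control list 1044 members were shared and 509 (32.8%) were control-only, where 41.0% of all distal control peaks were control-only. In the sgSNHG1 list 1116 were shared and 532 (32.3%) were sgSNHG1-only, against 30.2% of all distal sgSNHG1 peaks. Merged across the lists, the 3201 member peaks formed 2361 loci, of which 1320 were shared, 509 control-only and 532 sgSNHG1-only.

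The control group (wildtype by its label) carried a non-targeting control gRNA, and the sgSNHG1 group (labelled SNHG1 knockout) carried gRNAs against SNHG1, whose long non-coding transcript carries small nucleolar RNAs in its introns. The study's methods describe Cas9, reporter plasmids, puromycin and growth from single sorted cells for the guides against SNHG1. It calls the control a clone too, so that differences between clones and effects of the guides cannot be told apart. The study calls its clones depleted of SNHG1, and no RNA was measured in these files. Each group had 2 replicates that the authors combined before calling peaks. Every value below therefore comes from 1 pooled list per group, has no replicate spread, and supports no test between the conditions. The bracketed intervals are 95% intervals that cover counting error only.

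AP-1 is a dimer of basic leucine zipper proteins of the FOS, JUN and ATF families. It binds the word TGACTCA, also known as the TPA response element, and is a frequent occupant of enhancers far from promoters. Its activity rises with growth factor and stress signals through the immediate early genes. In neuroblastoma, AP-1 factors belong to the transcription programme of the mesenchymal cell state, while SK-N-BE(2)C cells are usually counted among the adrenergic lines. Proteins of the MAF, BACH and CNC families bind a longer word whose core is the same 7 bases, and that form usually has TGC directly before them.

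The sequences of 6 members are given first, as GRCh38 plus strand windows of 201 bp centred on the summit, with the AP-1 site in capitals. They are the members with the highest fold enrichment of each class. SYNPR (chr3:63343850-63344050) and DUTP1 (chr3:125322279-125322479) name the TSS nearest to shared peaks, ENSG00000233363 (chr7:154156099-154156299) and HPF1 (chr4:169765848-169766048) control-only peaks, and DOCK4 (chr7:111835116-111835316) and ENSG00000276538 (chr7:150060568-150060768) sgSNHG1-only peaks.
SYNPR: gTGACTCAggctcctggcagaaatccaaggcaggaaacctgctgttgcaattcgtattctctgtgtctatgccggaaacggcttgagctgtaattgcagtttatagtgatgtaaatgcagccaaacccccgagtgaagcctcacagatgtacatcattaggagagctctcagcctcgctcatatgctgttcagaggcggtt
DUTP1: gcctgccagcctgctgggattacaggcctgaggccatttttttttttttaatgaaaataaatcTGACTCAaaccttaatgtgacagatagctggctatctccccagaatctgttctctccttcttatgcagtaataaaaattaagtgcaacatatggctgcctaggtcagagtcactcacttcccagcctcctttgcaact
ENSG00000233363: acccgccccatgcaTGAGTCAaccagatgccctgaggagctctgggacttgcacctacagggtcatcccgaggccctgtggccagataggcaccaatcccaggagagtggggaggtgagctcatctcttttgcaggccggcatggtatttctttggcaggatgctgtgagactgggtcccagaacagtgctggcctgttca
HPF1: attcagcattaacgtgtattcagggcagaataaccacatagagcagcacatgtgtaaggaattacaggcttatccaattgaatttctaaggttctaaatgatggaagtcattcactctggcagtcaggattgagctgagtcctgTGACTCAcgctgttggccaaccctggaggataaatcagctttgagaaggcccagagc
DOCK4: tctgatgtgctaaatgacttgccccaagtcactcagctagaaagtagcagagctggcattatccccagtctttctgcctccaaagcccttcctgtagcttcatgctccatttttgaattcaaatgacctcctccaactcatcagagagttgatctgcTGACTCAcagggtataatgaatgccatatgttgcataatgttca
ENSG00000276538: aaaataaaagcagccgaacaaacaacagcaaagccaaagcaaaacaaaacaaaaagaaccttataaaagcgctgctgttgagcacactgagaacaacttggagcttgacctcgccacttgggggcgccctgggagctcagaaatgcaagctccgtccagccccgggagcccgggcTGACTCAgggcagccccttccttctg

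The site stood 96 bp before the summit at SYNPR and 34 bp before it at DUTP1. At the control-only peaks it stood 83 bp before the summit near ENSG00000233363 and 47 bp after it near HPF1. At the sgSNHG1-only peaks it stood 60 bp after the summit near DOCK4, where the bases TGC directly precede it, and 78 bp after the summit near ENSG00000276538. The called peak near ENSG00000276538 ended at 150060743, so most of its site lay beyond the peak. None of these 6 sites was at the summit, and each window held 1 site.

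Fewer peaks were called in the sgSNHG1 list, yet it held more members. The AP-1 site was present in 6.02% (5.74 to 6.32) of distal control peaks and in 7.36% (7.02 to 7.71) of distal sgSNHG1 peaks. By class, control-only peaks had the lowest share at 4.81% (4.42 to 5.24). Shared peaks had 6.86% (6.47 to 7.28) in the control list and 7.14% (6.74 to 7.55) in the sgSNHG1 list, and those 2 intervals overlap. The sgSNHG1-only peaks had the highest share, 7.87% (7.25 to 8.54). The sgSNHG1-only share thus exceeded the control-only share by 3.06 percentage points (2.31 to 3.83).

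Background was measured with the same word at positions 10 kb to either side of each summit, and with a word of the same length and ends but A or T at the centre (TGAATCA or TGATTCA). The AP-1 word was found in 3.23% of windows 10 kb from control-only summits and in 3.34% of windows 10 kb from sgSNHG1-only summits. The word with A or T at its centre was found in 3.38% (3.05 to 3.74) of control-only and 3.82% (3.39 to 4.30) of sgSNHG1-only peaks, so its interval overlapped between the classes. All 4 classes in the plot of shares by class were above both backgrounds.

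**Figure D1:**
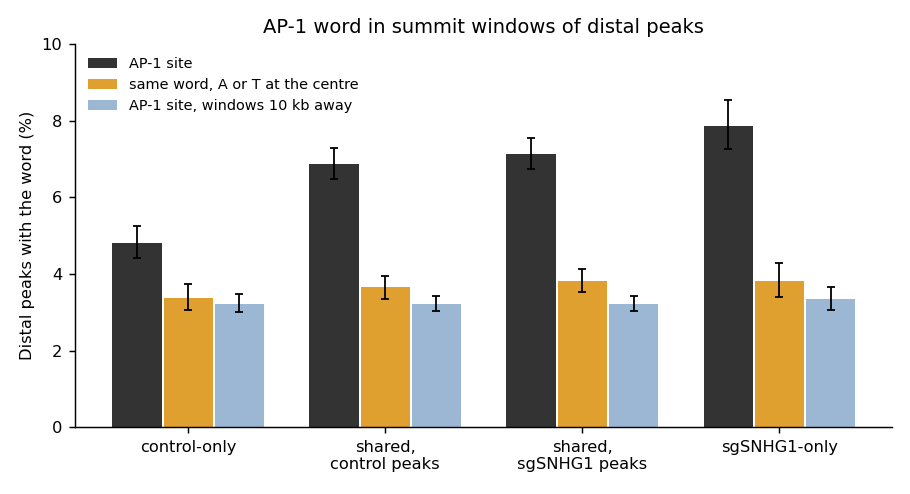
Percent of distal peaks whose 201-bp summit window holds the AP-1 site (dark), the same word with A or T at its centre (orange), or the AP-1 site in windows 10 kb away (blue), by peak class and with 95% Wilson intervals. The AP-1 bars run from 4.81% in control-only to 7.87% in sgSNHG1-only peaks whereas the other bars stay between 3.22% and 3.83%.

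Read the other way, members were control-only less often than other distal peaks. Of the control members 32.8% were control-only against 41.5% of the distal control peaks without the site, a difference of -8.76 percentage points (-11.1 to -6.31). Of the sgSNHG1 members 32.3% were sgSNHG1-only against 6228 of the 20748 without the site, a difference of 2.26 points whose interval includes 0 (-0.0369 to 4.64).

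The difference between the classes was larger among stronger peaks, up to a -log10 q of 20. The -log10 q of a peak is the significance that the peak caller gave it. Among peaks with a -log10 q of 2 to 4 the site was in 6.30% of sgSNHG1-only and 4.72% of control-only peaks. From 6 to 10 the shares were 9.94% and 4.79%, and from 10 to 20 they were 9.42% and 3.63%. The differences were 1.58, 2.53, 5.16 and 5.79 percentage points over the 4 strata from 2 to 20. Above 20 there were only 46 sgSNHG1-only and 112 control-only distal peaks, of which 1 and 6 were members. Those shares, 2.17% (0.385 to 11.3) and 5.36% (2.48 to 11.2), had the opposite direction, with wide intervals that overlap.

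The difference was also present when peaks were divided by base composition, place or distance. It was 2.13 to 4.02 percentage points in the 5 GC strata whose intervals lay above 0, and 1.78 points (-0.173 to 3.97) at a GC content of 55 to 60%. The median GC content of the member windows was 48.3% for control-only members and 46.3% for sgSNHG1-only members. In introns the difference was 2.80 points (1.79 to 3.85), in intergenic sequence 3.36 points (2.22 to 4.56) and in exons 4.81 points (0.918 to 9.54). By distance to the nearest TSS it was lowest at 3 to 10 kb, with 1.79 points (0.493 to 3.16), and highest at 10 to 50 kb, with 3.88 points (2.78 to 5.02).

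The share of distal peaks with the site was higher in the sgSNHG1 list on 23 of 23 chromosomes. Members were more numerous in sgSNHG1 on 15 chromosomes, while distal peaks were more numerous in sgSNHG1 on 1, chromosome X. Over the genome the log2 ratio of sgSNHG1 to control was 0.09 for members and -0.20 for distal peaks. Chromosome 4 stood apart, with 1416 distal peaks in control and 693 in sgSNHG1. Members there went from 83 to 47, a log2 ratio of -0.82, against -1.03 for all distal peaks there. Of the 83, 50 were control-only. The 1416 distal control peaks there gave only 536 distal pairs, so this count is not a result about the members. On chromosome 12 the shares were nearly equal, 5.74% and 5.76%. On chromosome 19 they were 6.67% and 12.4%, from only 14 and 24 members.

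**Figure D2:**
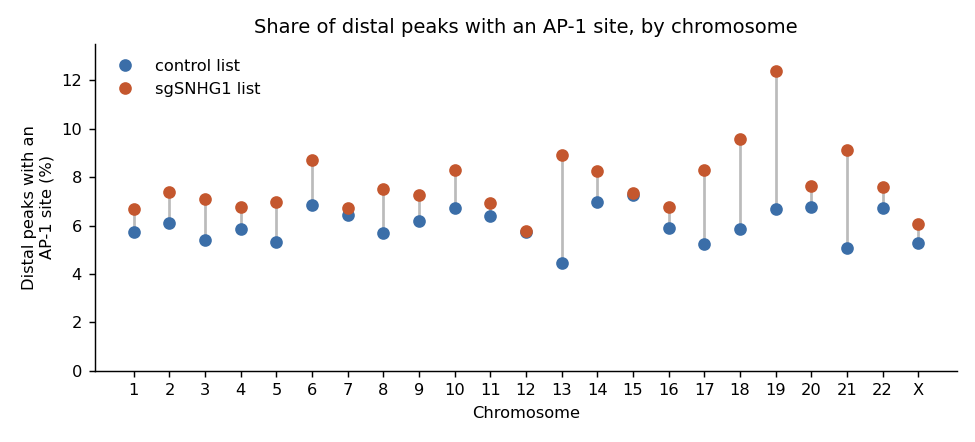
Percent of distal peaks with an AP-1 site on each chromosome in the control list (blue) and the sgSNHG1 list (orange), 1 pooled list each, without error bars. The sgSNHG1 point is above the control point on all 23 chromosomes, least on chromosomes 12 and 15 and most on chromosome 19.

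Where the site lay relative to the summit was not part of the rule beyond the 100-bp limit. Within 20 bp of the summit, shared control peaks had 4.85 sites per 1000 peaks per 10 bp, 2.53 times the 1.91 of the outer positions 150 to 250 bp away. Control-only peaks had 3.03 near the summit, 1.71 times their outer density. The sgSNHG1-only peaks had 4.81, 2.81 times their outer density. With A or T at the centre of the word the same ratio was 1.23 to 1.37. Compared with the outer positions the sites thus gathered around the summit in all classes, and least in control-only peaks. In sgSNHG1-only peaks the highest density was in the bin starting 40 bp after the summit, at 6.51 (44 sites). Control-only peaks were highest in the bin starting 40 bp before it, at 3.88 (41 sites). Shared sgSNHG1 peaks were highest in the bins starting 30 bp before and 30 bp after it, at 5.12. A maximum away from the summit was thus not particular to sgSNHG1-only peaks. The median distance of the site from the summit was 40 bp in control members and 39 bp in sgSNHG1 members.

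**Figure D3:**
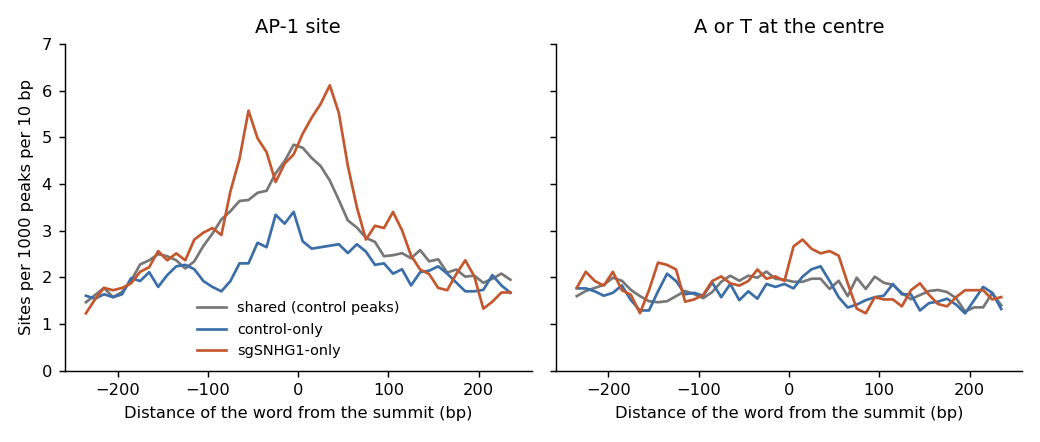
Density of the AP-1 site (left) and of the same word with A or T at its centre (right) by distance from the peak summit in bp, as sites per 1000 distal peaks per 10 bp, smoothed over 3 neighbouring bins. Within 20 bp of the summit the AP-1 densities are 4.85 in shared control peaks (grey), 3.03 in control-only (blue) and 4.81 in sgSNHG1-only peaks (orange), whereas the right panel has no comparable rise.

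The bases beside the site also differed from those 10 kb away. Read so that the site is TGAGTCA, a T before it or an A after it was found at 17.8% (15.7 to 20.2) of the sites of shared control peaks, against 37.5% (34.5 to 40.5) of sites 10 kb away. In sgSNHG1-only peaks the share was 17.9% (15.0 to 21.3) and in control-only peaks 24.0% (20.6 to 27.8), against 39.9% and 40.2% away from them. Sites in peaks therefore carried these flanks less often than sites elsewhere. TGC directly before the site, the form of the MAF and BACH word, was found at 9.15% of sites in shared control peaks, 6.62% of those in control-only peaks and 6.55% of those in sgSNHG1-only peaks, against 4.45 to 5.82% at sites 10 kb away.

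More than 1 site in the window was found in 72 control members, or 4.64% (3.70 to 5.80), and in 116 sgSNHG1 members, or 7.04% (5.90 to 8.38). The difference was 2.40 percentage points (0.776 to 4.04). The most sites, 7 in the control window and 6 in the sgSNHG1 window, lay in a shared peak 32.0 kb from NID1, which encodes the basement membrane protein nidogen. They were spaced at exactly 29 bp, so that this window is a tandem repeat. Fold enrichment there was 6.35 (control) and 7.37 (sgSNHG1).

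Other words were counted in the same windows. The CTCF word, bound by an insulator protein, was rarer in members. It was in 4.57% of control members and 8.12% of other distal control peaks (difference -3.55 percentage points, -4.55 to -2.35), and in 4.55% and 8.43% in the sgSNHG1 list (-3.88, -4.86 to -2.70). E-boxes (CANNTG), the sites of factors such as HAND2 and MYCN, were in 80.6% of control members and 76.7% of other distal control peaks (3.90, 1.79 to 5.87). In the sgSNHG1 list that difference was 1.72 (-0.327 to 3.63). The intervals of the differences included 0 in both lists for TEAD (ACATTCC), RUNX (TGTGGT), ETS (CCGGAA) and GATA (GATA after A or T and before A or G). TEAD words were in 2.25% of control members and 2.55% of sgSNHG1 members.

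In size and place the members resembled other distal peaks. The median fold enrichment, which is the fragment pileup at the summit over the local background, was 5.31 in control members and 5.19 in other distal control peaks. It was 5.52 and 5.32 in the sgSNHG1 list. The median pileup was 22 fragments in control members and 19 in sgSNHG1 members. Control members had a median width of 277 bp and sgSNHG1 members 204 bp, with 276 and 196 bp for other distal peaks, so the sgSNHG1 list had narrower peaks with and without the site. The narrowest peaks of the whole lists measured 119 bp (control) and 92 bp (sgSNHG1). Members found in 1 list only had median widths of 193 bp (control-only) and 139 bp (sgSNHG1-only). Both are below the 201 bp of the window, so a site could lie outside its called peak. Introns held 62.3% of control and 60.2% of sgSNHG1 members, and the median distance to the nearest TSS was 15204 and 15689 bp.

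At the edge of the rule, 97 control and 98 sgSNHG1 members lay 3 to 4 kb from a TSS, while 106 and 99 peaks with the site lay 2 to 3 kb away and were left out. A site only at 100 to 250 bp from the summit was found in a further 1391 control and 1224 sgSNHG1 distal peaks. The median fold enrichment was 5.36 just inside and 5.42 just outside the TSS limit in control, and 5.58 and 5.42 in sgSNHG1.

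Among peaks present in both lists, 836 pairs of mutual best overlaps had the site in both windows, and in 823 it was the same site. A further 449 distal pairs had it in 1 window only, 203 in that of the control peak and 246 in that of the sgSNHG1 peak, and their median log2 ratio of fold enrichment was 0.03. Fold enrichment was higher in sgSNHG1 in 479 of the 836 pairs with the site in both windows (57.3%), against 47.6% of 13871 distal pairs with no site. The difference was 9.73 percentage points (6.25 to 13.1). The shift itself was small. The median log2 ratio of sgSNHG1 to control was 0.06 (quartiles -0.20 and 0.27) with the site and -0.02 (quartiles -0.27 and 0.22) without it. Counting error alone gave a single pair a standard error of 0.41 (median), so that few pairs could be told from no change one by one.

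The direction held for pileups divided by the genome-wide background of each list, with a median log2 ratio of 0.12 with the site and 0.02 without it. Where both peaks of a pair reached a -log10 q of 10, the medians were 0.08 in 409 pairs with the site and 0.02 in 5477 without it. At a GC content below 45% the fold enrichment was higher in sgSNHG1 in 63.4% of 213 pairs with the site and in 2308 of 4198 without it. Above 55% the shares were 47.9% and 41.2%, so that both kinds of pair had lower shares in GC-rich windows.

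**Figure D4:**
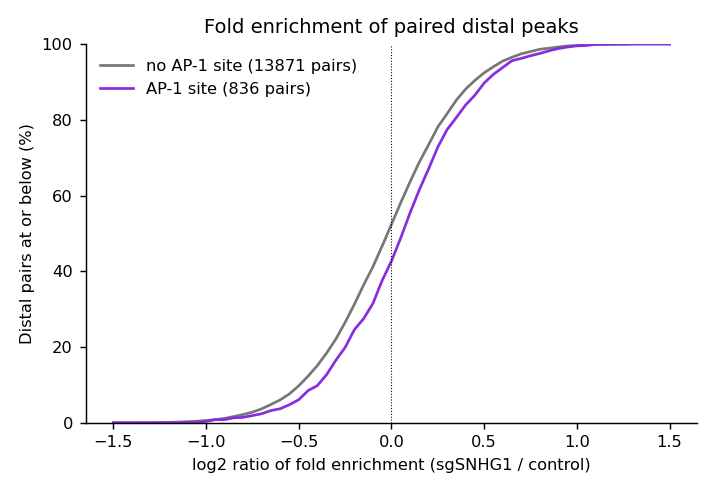
Cumulative percent of distal peak pairs at or below each log2 ratio of sgSNHG1 to control fold enrichment, for pairs with an AP-1 site in both windows (purple, 836 pairs) and in neither (grey, 13871 pairs). The curve for pairs with the site lies to the right, with medians of 0.06 and -0.02.

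At least 1.5 times higher fold enrichment in sgSNHG1 was found in 54 of the 836 pairs (6.46%), where 5.08% of all 15156 distal pairs passed. At least 1.5 times lower was found in 31 (3.71%), where 6.32% passed. With the scaled pileup in place of fold enrichment 128 pairs (15.3%) were higher, where 10.7% of all distal pairs passed, and 47 (5.62%) were lower, where 9.05% passed. In the 449 pairs with the site in 1 window, the calls on fold enrichment were nearly even, with 26 higher (5.79%) and 25 lower (5.57%).

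The strongest shared members had similar fold enrichment in both lists. The peak in an intron of SYNPR, which encodes the synaptic vesicle protein synaptoporin, had 13.9 in control and 16.4 in sgSNHG1 (log2 ratio 0.24, standard error 0.22 from counting). The peak 11.3 kb from the pseudogene DUTP1 had 15.9 and 14.2 (-0.17, standard error 0.25). Near MIR4447, in an intron, the values were 13.2 and 15.3 (0.21, standard error 0.24). All 3 ratios lay within 2 standard errors of 0.

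Among the strong pairs with the ratios farthest above 0, the peak in an intron of FMNL2, a formin that builds actin filaments, went from 8.43 in the control list to 14.5 in the sgSNHG1 list (log2 ratio 0.78, standard error 0.31). Its pileup was 34 and 57 fragments. The peak 49.7 kb from SLIT3, a secreted ligand of ROBO receptors in axon guidance, had 7.69 and 12.9 (0.75, standard error 0.36). The peak in an intron of NOCT, a phosphatase under circadian control, had 4.73 and 9.45 (1.00, standard error 0.32). Its pileup was 42 and 38, and the scaled pileup gave a log2 ratio of 0.21, so that at NOCT the local background differed between the lists and the pileup hardly did. NOCT lies on chromosome 4, where the median log2 ratio of fold enrichment over 536 distal pairs was -0.18.

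Of the ratios farthest below 0, DENND2A, which encodes an activator of RAB proteins, had an intronic peak of 10.3 in control and 5.87 in sgSNHG1 (log2 ratio -0.81, standard error 0.31). ELAVL2, a neuronal RNA-binding protein, had an intronic peak of 13.7 and 8.09 (-0.76, standard error 0.35), with 94 and 21 fragments. Its scaled pileup gave a log2 ratio of -1.80, so that the local background also differed between the lists. ELAVL2 lies on chromosome 9, where distal peaks numbered 1037 in control and 785 in sgSNHG1. The median log2 ratio of fold enrichment over the 576 distal pairs there was -0.05. ABCC1, a drug efflux pump, had 9.85 and 6.32 (-0.64, standard error 0.39). These pairs were picked as extremes among 409. The 41 bp around the site in 6 of them are FMNL2 (chr2:152586218-152586258), SLIT3 (chr5:169350910-169350950), NOCT (chr4:139019394-139019434), DENND2A (chr7:140567739-140567779), ELAVL2 (chr9:23783656-23783696) and ABCC1 (chr16:16022243-16022283), shown because they hold the ends of the range of ratios at strong pairs, each with the same site in both lists.
FMNL2: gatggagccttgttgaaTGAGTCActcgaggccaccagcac
SLIT3: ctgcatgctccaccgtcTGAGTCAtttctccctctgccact
NOCT: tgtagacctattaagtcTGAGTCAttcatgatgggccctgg
DENND2A: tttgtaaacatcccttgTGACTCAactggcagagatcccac
ELAVL2: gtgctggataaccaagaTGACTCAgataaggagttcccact
ABCC1: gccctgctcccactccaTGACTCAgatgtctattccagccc

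**Figure D5:**
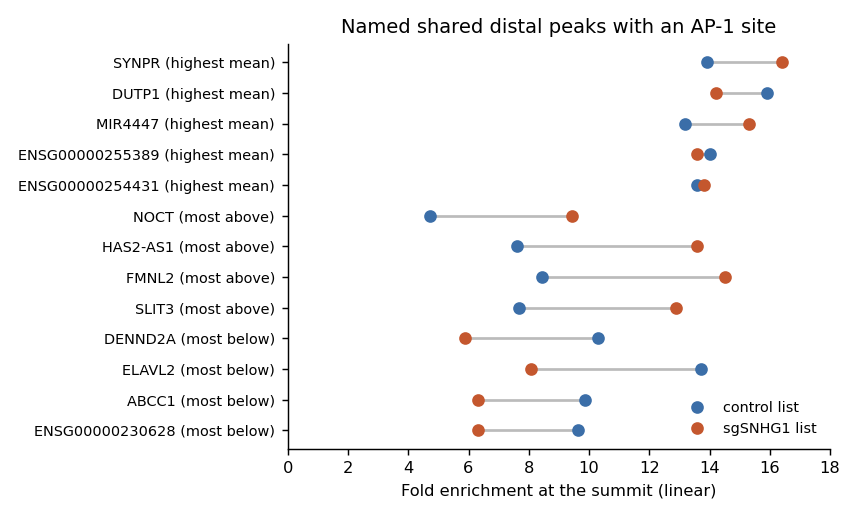
Fold enrichment at the summit (linear axis) in the control (blue) and sgSNHG1 (orange) lists for 13 shared members, labelled by the nearest TSS. The first 5 have the highest mean, the next 4 the ratios farthest above and the last 4 the ratios farthest below 0 where both peaks reached a -log10 q of 10.

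Members found in 1 list only were mostly weak. Their median fold enrichment was 4.35 in control-only and 4.63 in sgSNHG1-only members, against 6.11 and 6.25 in shared members, and the median pileup was 16 and 14 fragments. The strongest control-only members lay 59.8 kb from ENSG00000233363, in an intron (fold enrichment 11.1, 51 fragments), near HPF1, a cofactor of PARP1 (10.5, 39 fragments), and in ARHGAP24, a GTPase-activating protein (10.0, 33 fragments). CTR9, a subunit of the PAF1 elongation complex on chromosome 11, followed (9.38, 31 fragments), and then AFF1 (9.24, 37 fragments). HPF1, ARHGAP24 and AFF1 are on chromosome 4, which had fewer distal peaks in sgSNHG1 with or without the site. The strongest sgSNHG1-only member was in an intron of DOCK4, an exchange factor of small GTPases (11.6, 33 fragments). SYNE2, which encodes a nuclear envelope protein, had an intronic one at 8.83 with 23 fragments.

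Each locus was given to the protein-coding gene with the nearest TSS where that was within 100 kb. This placed 1765 of 2361 loci at 1474 genes, of which 1252 had 1 locus. Nearness does not show that a peak acts on a gene. Of all 19962 protein-coding genes 7.38% had a locus, 1.84% a control-only and 1.83% an sgSNHG1-only locus. PRKCE, a protein kinase C that responds to the phorbol ester for which the TPA element is named, and ZMIZ1, a transcription coregulator, had most, with 7 each. At PRKCE 4 were shared and 3 control-only, and at ZMIZ1 5 and 2. PRKAG2, a subunit of the AMP-activated kinase, had 6, of which 3 were control-only. PSD3, ATXN1 and RAPGEF5 had 4 each. At PSD3 and at ATXN1 3 were shared and 1 sgSNHG1-only. At RAPGEF5 1 was shared, 2 control-only and 1 sgSNHG1-only.

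AP-1 and related factor genes had a locus in 5 of 23 cases (21.7%, against 7.38% of all protein-coding genes). BACH2, a repressor that binds the longer AP-1-like word, had an intronic shared peak at 10.8 in control and 11.9 in sgSNHG1 (log2 ratio 0.14, standard error 0.29). The locus nearest to JUN was shared, at 8.11 and 5.15 (-0.66, standard error 0.49), with 25 and 13 fragments. That of JUND was at 3.19 and 4.43 (0.48, standard error 0.53). BATF3 had a control-only locus at 5.11, and BACH1 a shared one. None of the 23 genes had an sgSNHG1-only locus by the nearest TSS, where 1.83% of all genes had one, so that a count of 0 is not a result about this list. With every gene within 100 kb counted, 7 of the 23 had a locus and 1 an sgSNHG1-only one (4.35%, against 4.33% of all genes). FOS, FOSB, FOSL1 and FOSL2, the FOS partners in the dimer, had no locus of any class within this limit. Of all protein-coding genes 16.2% had one, so that the absence at these few genes is not a result about them. The site near JUND was preceded by TGC. The stretches of 41 bp at JUN (chr1:58755496-58755536), JUND (chr19:18294750-18294790) and BACH2 (chr6:90025880-90025920) are shown because these genes encode factors that bind the word.
JUN: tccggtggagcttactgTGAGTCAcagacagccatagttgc
JUND: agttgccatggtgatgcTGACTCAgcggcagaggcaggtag
BACH2: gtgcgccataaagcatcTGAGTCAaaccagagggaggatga

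Of 26 mesenchymal factor genes 4 had a locus (15.4%), where 7.38% of all protein-coding genes had one. At 3 of them it was control-only (11.5%), where 1.84% of all genes had such a locus. NR3C1, the glucocorticoid receptor, had a control-only peak at 6.49 (20 fragments), GLIS3 at 5.75 (19 fragments) and SOX9 at 4.41 (15 fragments). They lay 34.0, 99.9 and 30.6 kb from the TSS of these genes, so that the GLIS3 peak was only just inside the 100-kb limit. TBX18 had a shared peak at 8.90 in control and 7.28 in sgSNHG1. GLIS3 lies on chromosome 9, where distal peaks numbered 1037 in control and 785 in sgSNHG1. Of 25 matrix and adhesion genes 2 had a locus, near the share of all genes (7.38%). ITGAV, an integrin subunit, had an sgSNHG1-only one at 5.88 with 15 fragments, whose site lay outside the called peak. Of 15 YAP and TEAD genes only TEAD1 (6.67% of the list) had loci, also near the share of all genes. It had 4 in its introns, of which 2 were shared, 1 control-only and 1 sgSNHG1-only.

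Of 18 adrenergic factor genes only MYCN (5.56% of the list, against 7.38% of all genes) had loci, and all 3 were shared. They lie in the amplified region, where pileups were 335 to 556 fragments and fold enrichment 1.31 to 1.66. The log2 ratios were 0.04 to 0.23 with standard errors of 0.09 to 0.10. Every member with a pileup of at least 200 fragments, 6 in control and 7 in sgSNHG1, lay on chromosome 2 between 15957268 and 16412139, and their local background was 206 to 385 fragments.

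Immediate early genes had a locus in 4 of 20 cases, where 7.38% of all protein-coding genes had one. KLF6 had a shared one at 6.87 and 4.05 and an sgSNHG1-only one at 5.71. DUSP5, a phosphatase of MAP kinases, had 6.79 in control and 6.58 in sgSNHG1. SPRY4, an inhibitor of receptor tyrosine kinase signalling, had 3.67 and 4.11. Neuronal differentiation genes had a locus in 6 of 20 cases, against the same 7.38% of all genes. DDC, the decarboxylase of catecholamine synthesis, had 2 shared loci and 1 control-only, the strongest at 7.96 and 7.28. STMN2, a regulator of microtubules in neurites, had 1 shared locus with 30 and 16 fragments and 1 control-only locus. MAP2 had an sgSNHG1-only locus at 6.11. Of 17 genes of histone deacetylase complexes none had a locus, where 7.38% of all genes had one. A count of 0 in so short a list is not a result about it. These lists hold 15 to 26 genes each, so that 1 gene is 3.85 to 6.67% of a list, and none of the shares was tested.

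Few members lay close together. At a joining distance of 12.5 kb, 151 of the 2361 loci (6.40%) fell into 75 clusters, of which 1 held 3 loci. That cluster spanned chr2:16134521-16142054, in the amplified region. Promoter peaks were read at marker genes of cell types. Of 9 adrenergic markers 8 had one in both lists, of 9 mesenchymal markers 8, and of 3 blood markers none. With as many of each set, these peaks do not tell the adrenergic from the mesenchymal state. A peak at the SNHG1 promoter was present in both lists, at 5.71 in control and 6.04 in sgSNHG1, which does not check the depletion of its RNA.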

How the data were processed

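ATAC-seq libraries of 4 samples, 2 per group, were made from SK-N-BE(2)C cells. Per the labels and the study's methods, the authors trimmed reads with cutadapt, mapped them on GRCh38 by BWA and flagged duplicates by GATK and Picard. They removed duplicate, improperly paired, multiply mapped, mitochondrial and blacklisted reads, shifted ends for the transposase with deepTools, combined replicates and called peaks with MACS2. ChIPseeker was used for annotation. Versions, genome size and threshold are not given in the sources used here.

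The 2 deposited lists hold for each peak a score, a fold enrichment ratio at the summit, a -log10 p and a -log10 q. As deposited, the score is a capped multiple of -log10 q. The deposited fold enrichment is relative to the local background of its own list, so a ratio between lists compares 2 pooled samples. Poisson statistics of the pileup gave the deposited -log10 p and -log10 q. Pooling hides peaks that rest on 1 library, and removing duplicates lowers the deepest peaks.

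Pileups were solved from the fold enrichment and -log10 p to within 0.001, for all members and for 47609 of 47610 control peaks and 42682 of 42682 sgSNHG1 peaks. The smallest local background was 2.20 fragments in control and 1.72 in sgSNHG1, and scaled pileups were divided by it. TSS and gene places came from GENCODE version 44, and sequence from the hg38 genome, which is the GRCh38 build of the lists. Words were searched on both strands with pysam 0.24.0, and tables made with pandas 2.3.3. Shares have 95% Wilson intervals and differences Newcombe intervals (Python 3.11.15, numpy 2.4.6, scipy 1.17.1). Standard errors of log2 ratios come from Poisson counting of the pileups. The procedures were tested on simulated data.

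The members and the gene lists were chosen with earlier results of these data known. Named peaks were the 5 highest per class, the 4 pairs with the highest and the 4 with the lowest ratio where both peaks reached a -log10 q of 10, up to 4 genes per list with most loci, and the 6 genes with most loci. FOS, FOSB, FOSL1, FOSL2, BACH1, NID1 and the members of the amplified region were named after their values were seen. Sequences were taken from the first 2 peaks per class and from named peaks, leaving out 1 chromosome. Some items examined are not reported here.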

Additional observations from a re-analysis of the deposited data

How the results depend on the processing

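The sgSNHG1-only share of distal peaks with an AP-1 site exceeded the control-only share under 9 alternatives, by 1.74 to 4.44 percentage points. Of 85 alternative values 53 stayed within their interval or within 1.5 times the count, 32 moved and 0 reversed. With the site within 50 bp of the summit the shares were 3.48% (control list), 4.34% (sgSNHG1 list), 2.69% (control-only) and 4.42% (sgSNHG1-only), a difference of 1.74 points. Within 250 bp they were 11.4%, 12.8%, 9.96% and 13.3%, and 64.2% of control members were shared. When an overlap had to cover at least 50% of both peaks, the sgSNHG1-only share was 7.09%, the difference 2.10 points, and 51.7% of control and 50.1% of sgSNHG1 members were shared. With summits within 250 bp, 65.4% of sgSNHG1 members were shared. At a -log10 q of at least 5 the sgSNHG1 share was 7.72%, the sgSNHG1-only share 9.24%, the difference 4.44 points, and 69.9% and 71.7% of control and sgSNHG1 members were shared. At a -log10 q of at least 10 the shares were 6.57% (control list), 8.34% (sgSNHG1 list) and 8.75% (sgSNHG1-only), the difference 3.95 points, and 76.3% of sgSNHG1 members were shared. The scaled pileup, added after seeing the data, gave 128 pairs at least 1.5 times higher (15.3%, against 10.7% of all distal pairs) and 47 lower (5.62%, against 9.05%). Leaving out chromosomes 4, 9 and X gave a difference of 3.23 points, with 51 and 27 of 767 pairs higher and lower in fold enrichment (6.65% and 3.52%, against 5.10% and 6.06% of pairs without the site). With every gene within 100 kb counted, 4 adrenergic, 4 matrix, 8 immediate early, 2 YAP and TEAD and 1 deacetylase complex genes had a locus, while the share of all protein-coding genes rose from 7.38% to 16.2%. The matrix genes were then at 16.0% and the YAP and TEAD genes at 13.3%, no higher than all genes. The cause of these movements was not tested, except that a wider window and a looser overlap hold more sites and peaks by construction. No paired analysis was possible because the replicates were combined in each list, and for the same reason no replicate could be left out. Peaks with about 14 to 16 fragments, the median of members found in 1 list, are near the calling limit, so absence from a list is not absence of open chromatin.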

Other observations

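Peaks within 3 kb of a TSS were outside the members. Over each whole list the AP-1 site was rarer in them, at 3.13% in control and 3.74% in sgSNHG1. It was in 3.11% (2.85 to 3.38) of the shared control peaks, where 2.98% of windows 10 kb away held it, and in 3.20% (2.76 to 3.71) of the control-only peaks, where 3.13% did. In sgSNHG1-only peaks near a TSS it was in 7.05% (6.12 to 8.11), or 179 of 2539, against 3.15% (2.70 to 3.67) of windows 10 kb away. The word with A or T at its centre was in 2.88% (2.29 to 3.60) of those peaks and in 1.63% (1.32 to 2.01) of the control-only peaks near a TSS. Among 378 pairs near a TSS with the AP-1 site in both windows, fold enrichment was higher in sgSNHG1 in 51.9%, against 40.6% of 15756 pairs near a TSS without it, and the median log2 ratios were 0.01 and -0.07.

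A pair of windows with 4 sites each was sgSNHG1-only, one 16.0 kb from PLCB4, a phospholipase, with a fold enrichment of 5.88, and one 9.55 kb from ERICH1 with 3.79.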
